A study of Mus musculus with 2 samples.

Results

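Non-collagen matrix genes were examined in mouse peritoneal macrophages that had received an siRNA against HDAC9 or a control siRNA. The set is a list of 44 gene names, drawn up with earlier results of these data known, for glycoproteins and proteoglycans of the extracellular matrix, of 18193 genes that the array could name. Of these, 42 had a probe set with a single gene symbol, and Fbn1 and Efemp2 had none in the annotation used here. A probe set counted as above background when its log2 signal exceeded 6.34, the 95th percentile of 80 probe sets for olfactory and vomeronasal receptors. By this measure 40 of the genes exceeded background on 1 array or more and 37 did so on both, while Lama2 and Mfap4 were below it on both.

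Macrophages of male C57BL/6 mice were taken 48 h after transfection, the siRNA being the only difference between the groups that the labels record. The sources used here do not give the age of the mice, the siRNA sequences or any pooling of animals. The design asks which genes differ once HDAC9 is targeted. There was 1 array per group, so no spread between cultures could be measured and no test was possible. Every difference below is between 2 arrays, given as a log2 ratio with control as the denominator. Paired signals are given with control first. Hdac9 itself stood at 6.88 and at 5.69, the latter below background, so it was at least 1.46-fold lower.

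The extracellular matrix is a secreted scaffold of collagens, adhesive glycoproteins and proteoglycans, which are core proteins carrying long sugar chains. Small leucine-rich proteoglycans space collagen fibrils, laminins and nidogens build basement membranes, and fibulins, fibrillins and latent TGF-beta binding proteins form elastic fibres and microfibrils. Fibroblasts, mesothelial cells and smooth muscle cells are the usual main producers, and macrophages are known to make some members, fibronectin among them.

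The matrix genes as a set were slightly higher with HDAC9 siRNA, and the differences were uneven. The median log2 ratio of the 40 genes above background was 0.18, against 0.03 over all 12090 genes above background. The ratio was above 0 in 27 of the 40, against 54.1% of all genes. Past 2-fold were 2 genes, both higher: Vcan and Emilin1. Over all genes, 1.44% were at least 2-fold higher and 0.372% at least 2-fold lower. By its brightest probe set, Fbln1 was 1.98-fold higher, just short of that threshold. Thbs2 was at least 1.99-fold lower, a bound that does not settle on which side of 2-fold it lies; its deposited signals differed by -1.40.

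A finer yardstick came from genes with several probe sets, which read the same gene on the same array pair. The ratios of a gene's 2 brightest probe sets differed with a standard deviation that corresponds to 0.29 log2 units per probe set, over 5671 genes. This scatter leaves out differences between cultures. Of the 40 matrix genes, 18 were higher by more than the scatter, 8 were lower by more and 14 lay within it. Over all genes these shares were 22.2% higher and 12.1% lower. By brightest probe set, the matrix genes thus had larger shares on both sides. The lower share came mainly from dim genes: 7 of the 8 were among the 14 matrix genes with the lowest mean signal. In the signal range of those 14, 19.6% of all genes were lower by more than the scatter. Fmod and Mfap5, counted as lower, had second probe sets on the higher side (0.66 and 0.13). The scatter was taken over all signal levels together.

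**Figure D1:**
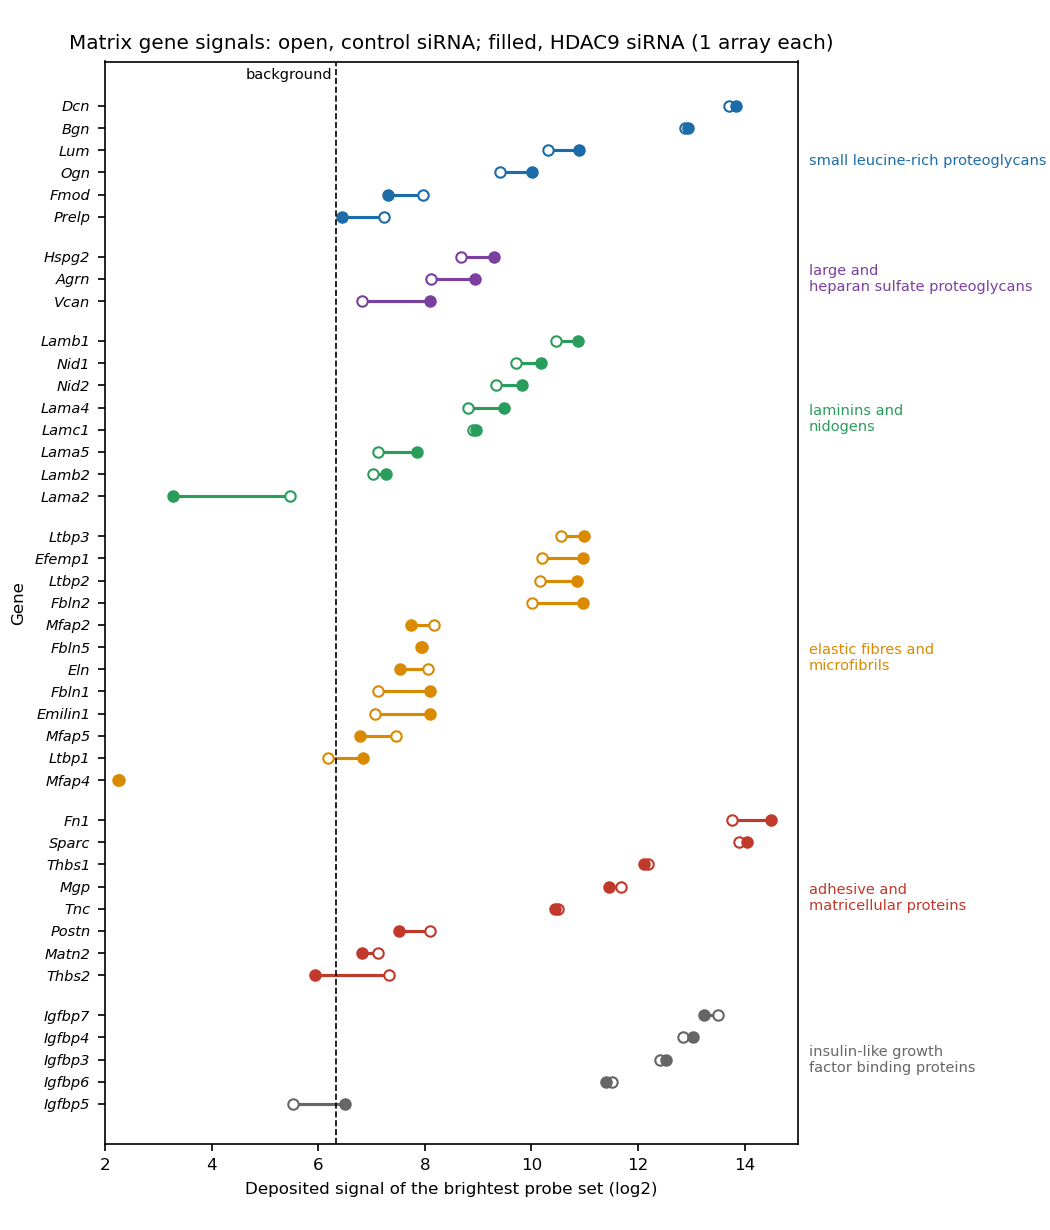
Deposited log2 signal of each matrix gene's brightest probe set with control siRNA (open points) and HDAC9 siRNA (filled points), 1 array each, grouped by role; the dashed line is the background at 6.34. All 7 laminin and nidogen genes above background lie further right with HDAC9 siRNA, whereas Postn, Matn2, Mgp and Thbs2 lie further left.

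Signals of different probe sets depend on the probes as well as on the transcript, so their order is not an order of transcript abundance. The data are from bulk RNA, in which fewer cells of a type and less RNA per cell cannot be told apart. Of 13 macrophage markers measured, 11 were above background, with Cd68 at 14.5 and 14.4 and Lyz2 at 14.7 on both arrays, while Timd4 and Cd163 were below it. Fibroblast markers were above background for 13 of 15 genes and mesothelial markers for 12 of 13, so markers of matrix-producing cell types were also measured on both arrays.

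To show the start regions of genes that differed in opposite directions, 250 bases before the annotated start are given for Fbln1 and Ogn, both higher, and for Thbs2, lower. They were taken from RefSeq on GRCm38.p6, 5′ to 3′ on the gene's strand. Among genes whose window lies outside the annotated gene, Fbln1 and Ogn had the highest ratios and Thbs2 the lowest; windows of Vcan and Emilin1 fall inside the gene's span and are not shown. Capitals mark matches to TATAAA or CAGAC on either strand, the letters of a TATA box and of a short SMAD-binding element.
Fbln1, chr15:85205699-85205948, plus strand: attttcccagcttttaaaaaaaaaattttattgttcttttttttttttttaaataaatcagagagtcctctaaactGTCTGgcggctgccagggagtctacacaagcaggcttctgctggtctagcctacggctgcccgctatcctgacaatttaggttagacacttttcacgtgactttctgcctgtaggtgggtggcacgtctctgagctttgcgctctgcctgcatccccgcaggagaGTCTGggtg
Ogn, chr13:49607765-49608014, plus strand: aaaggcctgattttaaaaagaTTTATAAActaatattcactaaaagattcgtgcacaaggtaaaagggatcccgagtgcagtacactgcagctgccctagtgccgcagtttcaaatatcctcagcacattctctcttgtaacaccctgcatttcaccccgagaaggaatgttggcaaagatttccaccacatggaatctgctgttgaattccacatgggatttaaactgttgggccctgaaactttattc
Thbs2, chr17:14694263-14694512, minus strand: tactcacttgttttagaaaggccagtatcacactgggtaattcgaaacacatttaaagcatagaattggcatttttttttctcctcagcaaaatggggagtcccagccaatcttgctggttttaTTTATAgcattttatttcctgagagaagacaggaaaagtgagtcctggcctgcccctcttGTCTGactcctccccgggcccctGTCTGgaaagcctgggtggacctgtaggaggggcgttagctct

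Windows were found for 32 of the 44 matrix genes, and 5 short motifs were searched in them on both strands, overlaps allowed. TATAAA occurred in 5 of 32 (15.6%) and in 12.4% of all 32851 windows of the same length, and the 5 were Igfbp4, Igfbp6, Ogn, Thbs2 and Tnc. GGGCGG, a GC box, occurred in 15 (46.9%, against 32.7% of all windows) and CAGAC in 17 (53.1%, against 42.2%). TGANTCA, an AP-1 motif, occurred in Efemp1 alone (3.12%, against 6.75%). CTANNNNTAG, a form of the motif of MEF2 factors, which class IIa deacetylases bind, was in 0 of 32 windows and in 3.20% of all. This pattern leaves the middle letters open but fixes both ends, so MEF2 sites with other end letters were not counted. These matches are descriptions of the letters in these windows.

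The large and heparan sulfate proteoglycan genes were all higher with HDAC9 siRNA. Vcan, which encodes versican, a large chondroitin sulfate proteoglycan of provisional matrix, stood at 6.82 with control siRNA and 8.10 with HDAC9 siRNA, 2.43-fold higher. Agrn, the heparan sulfate proteoglycan agrin, stood at 8.12 and 8.94, a ratio of 0.82. Hspg2, the basement membrane proteoglycan perlecan, stood at 8.68 and 9.29, a ratio of 0.61. All 3 ratios were more than 2 times the single-probe-set scatter. The second probe sets of Vcan and Hspg2 were also higher, by 0.72 and 0.55, and that of Agrn was below background on both arrays. By the median over its probe sets Vcan was at 0.72, short of 2-fold. Its control signal was close to background, and its 5 dimmest probe sets were below background on both.

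The laminin and nidogen genes of basement membranes were also higher, by smaller amounts. All 7 that exceeded background were on the higher side, with a median of 0.48, and 5 of the 7 exceeded the scatter. Lama5, an alpha chain of epithelial and vascular basement membranes, stood at 7.11 and 7.85 (ratio 0.73), and its second probe set at 6.70 and 8.05 (1.35). Lama4, an alpha chain of vascular and mesenchymal basement membranes, stood at 8.82 and 9.49 (0.68). Lamb1, a beta chain, stood at 10.5 and 10.9 (0.42), and its second probe set was at 0.20, within the scatter. Nid1 and Nid2, which link laminin and type IV collagen networks, had the same ratio of 0.48, from signals of 9.70 and 9.33 on the control array. The beta chain gene Lamb2 (0.23) and the gamma chain gene Lamc1 (0.06) lay within the scatter, and the second probe set of Lamc1 was at -0.24. Of chains that assemble into 1 laminin trimer, Lama4, Lamb1 and Lamc1 were at 0.68, 0.42 and 0.06. Whether these ratios differ from each other was not tested. Lama2, the alpha chain of muscle basement membranes, was below background, at 5.47 and 3.28.

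The elastic fibre and microfibril genes divided into a larger higher and a smaller lower group. Of 11 above background, 7 were higher and 3 lower by more than the scatter, with a median of 0.49. Emilin1, an elastin-associated glycoprotein, stood at 7.06 and 8.09, 2.04-fold higher, but short of 2-fold under each of 3 other array scalings, at 0.88 to 0.999. Fbln1 stood at 7.12 and 8.10 (ratio 0.98) and Fbln2 at 10.0 and 11.0 (0.95). Both encode fibulins, which bridge elastic fibres and other matrix networks. The dimmer probe sets of Fbln1 were at 0.67 and -0.09 (a bound), and the median over its probe sets was 0.67. Efemp1, which encodes fibulin-3, stood at 10.2 and 11.0 (0.77). These 4 were the highest ratios of the group, and Fbln2 and Efemp1 were far above background. In contrast Fbln5, a fibulin needed for elastic fibre assembly, was at 7.94 and 7.95 (0.02).

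Of the latent TGF-beta binding proteins, which tether latent TGF-beta to the matrix, Ltbp1, Ltbp2 and Ltbp3 were on the higher side. Ltbp4, a family member outside the 44 genes, was lower, at 7.26 and 6.86 (ratio -0.40). Ltbp2, which unlike the others does not bind latent TGF-beta, stood at 10.2 and 10.9 (ratio 0.70). Ltbp3 stood at 10.5 and 11.0 (0.44). Ltbp1 was at 6.18, under background, with control and at 6.83 with HDAC9 siRNA, at least 1.41-fold higher. The lower group held elastin itself and microfibril genes: Eln stood at 8.06 and 7.53 (-0.52), Mfap2 at 8.18 and 7.75 (-0.43) and Mfap5 at 7.46 and 6.79 (-0.67). The second probe set of Mfap5 was at 0.13, so its direction differed between probe sets. Mfap4 was below background, with 2.25 on both arrays.

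The small leucine-rich proteoglycan genes differed in direction among themselves. Lum, the fibril-spacing keratan sulfate proteoglycan lumican, stood at 10.3 and 10.9 (ratio 0.58). Ogn, osteoglycin, stood at 9.41 and 10.0 (0.61), and its second probe set was at 0.74. Dcn, decorin, and Bgn, biglycan, gave bright signals with ratios within the scatter: Dcn stood at 13.7 and 13.8 (0.13) and Bgn at 12.9 on both arrays (0.05). All 3 probe sets of Bgn and both of Dcn had ratios between 0.05 and 0.28. Prelp, a heparin-binding member, stood at 7.24 and 6.45 (-0.79). Fmod, fibromodulin, stood at 7.96 and 7.32 by its brightest probe set (-0.64), but its next 3 probe sets were higher, the brightest of these at 0.66, and the median over its probe sets was 0.66. No direction is therefore given for Fmod.

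Among adhesive and matricellular genes, fibronectin stood apart. Fn1, which encodes the adhesive glycoprotein fibronectin, stood at 13.8 with control and 14.5 with HDAC9 siRNA, a ratio of 0.73, and its second probe set was at 1.05. Of the other 7 genes, 6 had ratios below 0. Thbs2, an antiangiogenic thrombospondin, stood at 7.34 and 5.94, below background, and its 2 dimmer probe sets likewise exceeded background with control siRNA alone. Its bound was -0.41 with a floor at percentile 99. Postn, periostin, a matricellular protein of fibroblasts, stood at 8.10 and 7.51 (-0.60). Matn2, a matrilin, stood at 7.13 and 6.82 (-0.31), with its second probe set at -0.74. Mgp, an inhibitor of calcification, stood at 11.7 and 11.4 (-0.22). The bright genes Sparc (0.16), a collagen-binding matricellular protein, Thbs1 (-0.09), an activator of latent TGF-beta, and Tnc (-0.05), tenascin-C, lay within the scatter.

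Insulin-like growth factor binding proteins hold these growth factors in the fluid and matrix around cells. By brightest probe set, their genes showed no difference beyond the scatter in the 4 cases measured above background on both arrays. Igfbp4 stood at 12.8 and 13.0 (ratio 0.20), Igfbp3 at 12.4 and 12.5 (0.11), Igfbp6 at 11.5 and 11.4 (-0.11) and Igfbp7 at 13.5 and 13.2 (-0.25). Igfbp5 was below background on the control array and just above it with HDAC9 siRNA, at least 1.12-fold higher. The 6 probe sets of Igfbp4 ran from -0.99 to 0.21, and 4 of them were below 0. The dimmer probe sets of Igfbp7 exceeded the scatter in opposite directions, at -0.35 and at 0.81, the latter a bound.

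**Figure D2:**
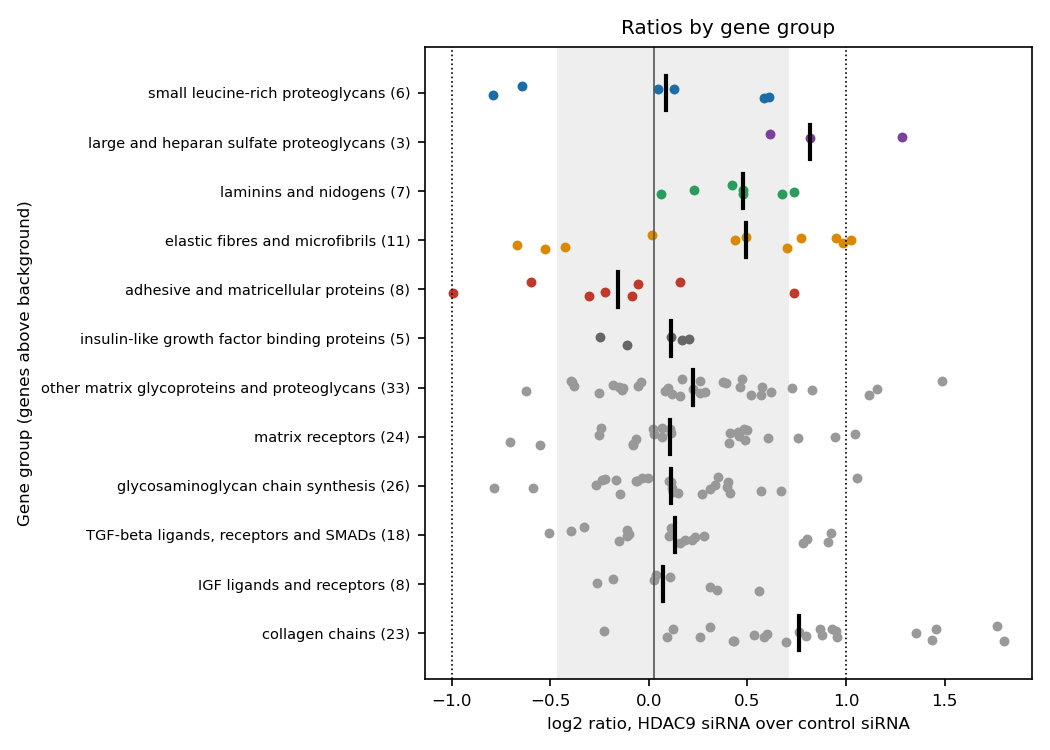
log2 ratio (HDAC9 over control siRNA) for each gene above background, by role group (coloured) and by other fixed list (grey); black bars are group medians, the grey band spans the 5th to 95th percentile of all genes (-0.46 to 0.71) and dotted lines mark 2-fold. Collagen chains have the highest median of the grey lists (0.76), and the adhesive and matricellular genes are the 1 role group with a median below 0 (-0.16).

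The ratio was next related to signal level. Across the 40 matrix genes the log2 ratio hardly followed mean log2 signal (Pearson r = 0.13, Spearman rho = 0.09), while across all 12090 genes it declined with signal (r = -0.17, rho = -0.19). These correlations are across genes of the same 2 arrays, which are not independent replicates, and noise in either array enters both axes. With the signal of the control array alone on the axis rho was -0.07, and with that of the HDAC9 siRNA array alone it was 0.24. The size of the difference without its sign declined with signal in both sets, with rho = -0.42 for matrix genes and -0.32 for all genes.

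Median ratios did not rise or fall steadily with signal, though the shape of the relation was not tested. When the 40 genes were split by mean signal into 3 nearly equal groups, a choice made after the values were seen, the 14 dimmest had a median ratio of -0.07 but spread from -0.996 (a bound) to 1.28. In this group 5 were higher and 7 lower by more than the scatter, where 41.9% of all genes in the same signal range were higher and 19.6% lower. The middle 13, with mean log2 signals from 7.94 to 10.6, had a median of 0.61. Of them 9 were higher by more than the scatter, 1 was lower (Mfap2) and 3 lay within it (Fbln5, Lamc1 and Tnc). The brightest 13 had a median of 0.13, with 4 higher (Lum, Lamb1, Ltbp3 and Fn1) and 0 lower by more than the scatter. All genes in the same 3 signal ranges had medians of 0.21, 0.04 and -0.05.

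The middle group held 9 of the 18 genes that were higher by more than the scatter. Among all genes in its signal range, 21.3% were higher and 11.4% lower by more than the scatter. In the range of the brightest group these shares were 8.03% and 7.57%. The edges of the groups mattered: with 4 equal bins of all genes, the 8 matrix genes of the second bin (7.66 to 9.23) had a median of 0.04, and the 8 of the third (9.23 to 10.6) had 0.60. The 12 of the dimmest bin had a median of 0.20 and the 12 of the brightest 0.12. The median of the 14 dimmest genes also depended on the probe sets taken, at 0.20 by the median over each gene's probe sets and 0.36 when sets with the endings _s_at, _x_at and _a_at were left out.

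**Figure D3:**
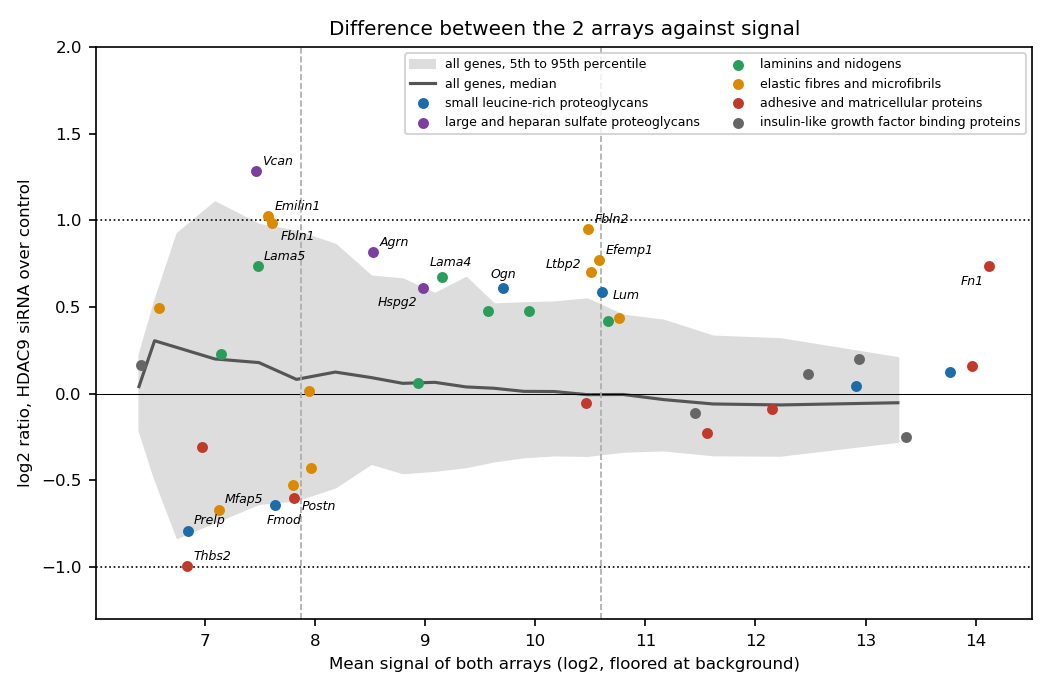
log2 ratio (HDAC9 over control siRNA, vertical axis) against mean log2 signal of both arrays for the 40 matrix genes above background, coloured by role; the line and band are the median and the 5th to 95th percentile of all 12090 genes in 20 bins, dotted lines mark 2-fold and dashed lines separate the dimmest, middle and brightest genes. Dim genes lie on both sides of 0, most genes between 8.5 and 10.8 lie between 0.42 and 0.95, and Fn1 at 14.1 (0.73) stands above the other bright genes.

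Second probe sets gave a partial check within the arrays. Of 22 matrix genes with a second probe set above background, 19 had the same direction in both (86.4%), against 61.2% of all 5671 such genes. Among the 13 whose brightest probe set exceeded the scatter, 11 had the same direction, and the exceptions were Fmod and Mfap5. Over all 78 probe sets of matrix genes above background, 51 were above 0 and 27 below, with a median of 0.18. Neither of these last counts was taken over all genes for comparison. For Vcan, Fbln1 and Lamb1 the second ratio was smaller than the first, and for Fn1, Lama5, Nid1 and Ogn it was larger.

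**Figure D4:**
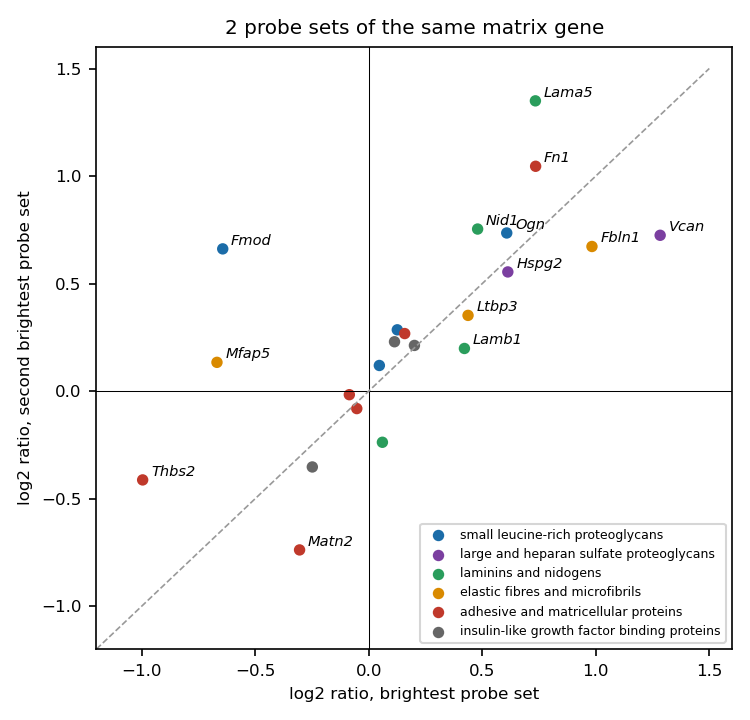
log2 ratio by the second brightest probe set (vertical axis) against that by the brightest probe set for 22 matrix genes with both above background, coloured by role; the dashed line marks equal ratios. Of these genes 19 lie in the upper right or lower left, where both probe sets have the same sign, Fmod and Mfap5 lie in the upper left, and Lamc1 lies in the lower right.

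Other genes of the matrix pathway came from lists that did not include the 44. Of 33 further matrix glycoprotein and proteoglycan genes that exceeded background, 3 were at least 2-fold higher and 0 lower, with a median of 0.22. They were Fndc1 (8.56 and 10.0, ratio 1.49), Pcolce2, which encodes an enhancer of procollagen processing (1.16), and Slit3, a secreted guidance protein (1.11). Collagen chains, the fibrous partners of many of these proteins, were on the higher side in 22 of 23 genes and 5 past 2-fold, with a median of 0.76, and the 5 were Col1a1 (1.80), Col4a6 (1.77), Col3a1 (1.46), Col6a2 (1.44) and Col5a1 (1.36). Across these 23 genes the ratio and mean signal had rho = 0.36, where the matrix genes had 0.09; this difference was not tested.

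Of 24 matrix receptor genes 1 was at least 2-fold higher, the collagen receptor gene Ddr1 (1.05), and Lrp1, an endocytic receptor for matrix proteins, was at 0.94; the median was 0.11. Of 26 genes for glycosaminoglycan synthesis 1 was at least 2-fold higher, the uronyl sulfotransferase gene Ust (1.05), with a median of 0.11. Has1, a hyaluronan synthase, was below background with HDAC9 siRNA (a bound of -0.78). Of 18 genes for TGF-beta ligands, receptors and SMADs 0 were past 2-fold; the median was 0.13, and Tgfb1 (0.92), Smad6 (0.91) and Ski (0.80) had the largest ratios. Of 8 genes for insulin-like growth factors and their receptors 0 were past 2-fold, with a median of 0.07. Igf2 had the largest ratio (a bound of 0.56), and Igf1 was at 0.04.

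Markers of matrix-producing cell types were read beside these results. The linear signals of the 42 matrix genes summed to 100624 with control and 117562 with HDAC9 siRNA, 1.17-fold higher. Such a sum is led by the brightest probe sets, and without Fn1, left out after the values were seen, it was 86763 and 94494, 1.09-fold higher. Fibroblast markers summed to 40558 and 49288, but this list holds 3 collagen chains. Without them, a choice made after the values were seen, the sum was 21178 and 17552, and 8 of 10 markers above background were lower. Of these 8, Thy1 (-0.72), Fap (-0.56), S100a4 (-0.50), Tcf21 (-0.38) and Gsn (-0.31) were lower by more than the scatter. Pdgfra (-0.10), Pdgfrb (-0.18) and the bound for Dpt (-0.26) lay within it. The other 2 of the 10 were higher: Cd34 at 7.11 and 8.12 (ratio 1.02, past 2-fold) and Ddr2 at 0.48. Gsn, S100a4 and Pdgfra were the brightest of the 10 and so weighed most in this sum. Mesothelial markers summed to 17227 and 19433, with 6 of 12 higher and 6 lower, Msln at -1.11 and Lrrn4 at 0.56. Smooth muscle and pericyte markers summed to 9810 and 11514, with 8 of 11 above background and a median of 0.15, and Actg2 was at -1.02. Endothelial markers summed to 1049 and 1309, with 5 of 12 above background, and Pecam1 and Cdh5 were below it on both arrays. Macrophage markers summed to 92763 and 90245, with a median of 0.00. Of other blood cell markers, 4 of 11 for T cells, 3 of 8 for B cells, 4 of 9 for neutrophils and 2 of 10 for mast cells were above background, and no marker of any list was at exactly 0 on either array. The part of these cell types in the matrix gene differences was not tested.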

How the data were processed

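The 2 columns of deposited log2 signals, 1 per array, were used. The submitters' processing notes name MAS5, which summarises each probe set. Its version, scaling and detection calls were not given in the sources used here. After undoing the log2, the deposited arrays had linear signals with the same trimmed mean of 497 (highest and lowest 2% removed), so the authors' scaling was kept.

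Of 45037 probe sets, 34945 had 1 gene symbol in the platform annotation of 2016; 932 had several and 9160 none, and these were left out. Symbols were checked by gene identifier against RefSeq genes of GRCm38.p6 (34741 matched, 0 changed). Each gene took the probe set with the highest mean linear signal. Signals below the floor (log2 6.34, linear 80.9) were raised to it before the ratio was taken, and a ratio with 1 floored signal is a bound.

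The 44 matrix genes, the 6 role groups and the 15 other lists were chosen with earlier results of these data known. All 44 genes are named. Of other lists, genes past 2-fold are named, and for some lists those with the largest ratios. Genes not named can also have ratios beyond the scatter, some macrophage and T cell markers among them. Genes chosen after their values were seen are also named: Igf1, Lrp1, Lrrn4, Ltbp4, Cd68, Lyz2 and markers below background. So are the fibroblast markers Ddr2, Pdgfra, Pdgfrb, S100a4, Gsn, Thy1, Fap, Tcf21 and Dpt. The steps were tested on simulated data. In them only genes well above background on both arrays were shifted, with the same noise at every signal level. The test therefore does not cover genes near background. Alternatives were other scalings (median, quantile, loess with a span of 0.3), floors (75th and 99th percentile, or none with a pseudocount of 1), probe set rules and thresholds (1.5-fold and 3-fold). Python 3.11.15, pandas 2.3.3 and statsmodels 0.14.6 were used.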

Additional observations from a re-analysis of the deposited data

How the results depend on the processing

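No paired analysis was possible because each group had 1 array, and for the same reason no replicate could be left out. The median ratio of the matrix genes stayed between 0.16 and 0.21 under every scaling, floor and probe set rule tried. The count at least 2-fold higher was 1 after centring on the median, quantile normalization or loess, when Emilin1 fell short, 12 at 1.5-fold and 0 at 3-fold. The count at least 2-fold lower was 1 (Thbs2) after centring, quantile normalization or loess, and likewise for a floor set at percentile 75. It was 2 with no floor, when Lama2 joined, and 5 at 1.5-fold. By the median over probe sets Vcan was at 0.72 and Lama5 past 2-fold.

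The correlation of ratio with signal was weak under all settings and changed sign in some. Spearman rho was 0.21 after loess, -0.027 without _s_at, _x_at and _a_at probe sets, -0.067 against the control array's signal and 0.24 against the HDAC9 siRNA array's signal. Pearson r was 0.23 after quantile normalization, 0.27 after loess, 0.23 with no floor, -0.034 without those probe sets, 0.0096 against the control array and 0.24 against the HDAC9 siRNA array. The cause of these shifts was not tested.

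Of 313 values of single genes under alternatives, 298 moved by less than the 0.29 scatter and 15 by more. Many of these could not move far: centring shifted every ratio by 0.03, and other floors left bright genes nearly as they were. A gene with 1 probe set above background kept its ratio under the median over probe sets. Among genes beyond the scatter, 1 changed sign: Fmod, at 0.66 by the median over probe sets and 0.68 without those 3 kinds. For the dimmest genes the median ran from -0.26 to 0.36, for the middle ones from 0.55 to 0.62 and for the brightest from 0.098 to 0.18. Dim genes are limited by their small margin over background.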
